A study of Mus musculus with 384 samples.

Results

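The 10 genes described here encode Toll-like receptors, their co-receptor and adaptor, and C-type lectin receptors of myeloid cells: Tlr2, Tlr4, Cd14, Myd88, Clec4d, Clec4e, Clec7a, Clec12a, Clec4n and Clec5a. They were taken by name, and all 10 are among the 23420 genes of the deposited table. Toll-like receptors sense microbial lipoproteins, lipopolysaccharide and nucleic acids, and most of them signal through the adaptor encoded by Myd88 to NF-kB. C-type lectin receptors bind sugars and glycolipids of fungi, mycobacteria and dying cells. Activating lectin receptors reach the kinase encoded by Syk through a motif of their own or through the partner proteins encoded by Fcer1g and Tyrobp, and inhibitory ones recruit phosphatases. Neutrophils carry both families and use them to start phagocytosis, oxidant production and cytokine release.

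The RNA was read by SmartSeq2, a full-length method for single cells, in cells sorted from the spinal cord of Optn knockout mice after staining for CD45, CD11b and CX3CR1. Optn encodes optineurin, an autophagy receptor, and every cell carried the same genotype label; the series title calls the cells microglia, and age, sex, treatment, the sort gates and the exact allele are not given in the labels. Of 384 labelled cells, 326 were analysed, 154 in replicate 1 (plates 1 and 2) and 172 in replicate 2 (plates 3 and 4); the other 58 were not analysed here. The labels do not say whether the 2 replicates came from separate mice, so p-values measure the spread between these 2 samples, which may be technical.

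The cells were set in 4 groups. Neutrophils were the 286 cells (131 in replicate 1, 155 in replicate 2) with S100a8 plus S100a9 at 10000 TPM (transcripts per 1000000 transcripts) or more. They were divided on each plate into 3 equal parts by the mean log2(TPM + 1) of 7 granule genes (Ltf, Camp, Ngp, Lcn2, Chi3l3, Cd177 and Itgb2l), whose transcripts are made early in neutrophil maturation and lost later. This gave 94 granule-low, 95 granule-intermediate and 97 granule-high neutrophils. The 40 remaining cells (23 in replicate 1, 17 in replicate 2) are called other cells, and no cell lay between 4019 TPM and 12512 TPM of S100a8 plus S100a9.

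Optn was listed at 0 in all 326 cells, which allows a share of cells with Optn of up to 0.920% by counting alone. The label of microglia was not borne out by the markers: 3 or more of 14 microglia markers were above 0 in 1 of 286 neutrophils and in 0 of 40 other cells, and Sall1 was listed at 0 throughout. Of the other cells, 31 of 40 had 3 or more of 9 monocyte markers above 0, as did 94 of 286 neutrophils. The median number of these markers above 0 was 8 in other cells and 2 in neutrophils. TPM values keep no depth, and the number of genes above 0 per cell stood in for it: the median was 1367 in granule-low, 1566 in granule-intermediate and 2060 in granule-high neutrophils, and 3027.5 in other cells. Il1b was above 0 in 88 of 94 granule-low, 61 of 95 granule-intermediate and 20 of 97 granule-high neutrophils, so granule class and Il1b status largely overlap. Cells with 3 or more proliferation markers numbered 2, 6 and 15 in these classes.

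All 6 lectin receptor genes lie on mouse chromosome 6 (GRCm38, GENCODE annotation). Clec4n (from 123229843 to 123247021, plus strand), Clec4d (from 123262111 to 123275265, plus strand) and Clec4e (from 123281789 to 123289870, minus strand) are neighbours, with 15089 bases between Clec4n and Clec4d and 6523 bases between Clec4d and Clec4e. Clec12a (from 129342691 to 129365303, plus strand) and Clec7a (from 129461591 to 129472779, minus strand) are 96287 bases apart, and Clec5a (from 40574894 to 40585821, minus strand) lies far from the others. Clec7a is listed there as a polymorphic pseudogene. Tlr2 is on chromosome 3 (from 83836272 to 83841767, minus strand), Tlr4 on chromosome 4 (from 66827584 to 66930284, plus strand) and Myd88 on chromosome 9 (from 119335934 to 119341411, minus strand). The members were separable by sequence: at most 1.96% of the 31-base words in the transcripts of a member occurred in another gene, except for Myd88, which shares 8.93% with Acaa1a on the opposite strand.

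The promoters of Clec4d, Clec7a, Clec12a and Clec5a are shown because these 4 genes carry the main contrast. Clec4d and Clec7a were detected in a larger share of granule-low than of granule-high neutrophils, and Clec12a and Clec5a the other way. Each window runs from 250 bases before to 50 bases after the RefSeq start site (GRCm38.p6), read along the gene: chr6:123261857-123262156 (plus strand) for Clec4d, chr6:129472730-129473029 (minus strand) for Clec7a, chr6:129349994-129350293 (plus strand) for Clec12a and chr6:40585756-40586055 (minus strand) for Clec5a. Capitals mark GAGGAA and its reverse complement TTCCTC, a core of the sites bound by PU.1, a transcription factor of myeloid cells.
Clec4d: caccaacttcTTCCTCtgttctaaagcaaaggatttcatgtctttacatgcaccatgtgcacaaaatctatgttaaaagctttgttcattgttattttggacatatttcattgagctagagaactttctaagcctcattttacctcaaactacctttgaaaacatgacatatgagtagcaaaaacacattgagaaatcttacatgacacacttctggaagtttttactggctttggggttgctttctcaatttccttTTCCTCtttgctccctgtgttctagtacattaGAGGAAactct
Clec7a: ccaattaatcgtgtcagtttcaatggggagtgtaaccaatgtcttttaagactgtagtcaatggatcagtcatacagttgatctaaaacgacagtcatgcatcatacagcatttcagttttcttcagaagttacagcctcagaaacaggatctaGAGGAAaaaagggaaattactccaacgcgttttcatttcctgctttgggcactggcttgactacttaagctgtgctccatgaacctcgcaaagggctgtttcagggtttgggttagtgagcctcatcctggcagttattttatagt
Clec12a: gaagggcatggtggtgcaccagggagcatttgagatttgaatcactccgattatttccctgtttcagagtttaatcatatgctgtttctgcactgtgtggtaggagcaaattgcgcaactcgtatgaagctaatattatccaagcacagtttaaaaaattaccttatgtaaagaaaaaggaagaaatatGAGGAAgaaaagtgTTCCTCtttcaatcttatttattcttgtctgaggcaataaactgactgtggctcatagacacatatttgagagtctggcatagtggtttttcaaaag
Clec5a: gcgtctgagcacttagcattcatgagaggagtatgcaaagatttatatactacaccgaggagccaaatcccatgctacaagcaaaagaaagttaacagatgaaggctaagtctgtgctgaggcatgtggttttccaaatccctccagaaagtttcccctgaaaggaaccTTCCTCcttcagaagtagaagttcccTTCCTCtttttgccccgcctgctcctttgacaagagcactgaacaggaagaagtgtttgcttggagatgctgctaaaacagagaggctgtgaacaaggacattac
The word GAGGAA, searched on both strands, occurred in each of these 4 windows and in that of Clec4e, but not in those of Tlr2 and Myd88; 28.3% of 32851 mouse promoter windows hold it. It stood 3 times in the Clec4d window, 1 time in that of Clec7a and 2 times each in those of Clec12a and Clec5a, so its presence did not separate the granule-low from the granule-high pair. Of the other words searched on both strands, a loose NF-kB word occurred in the Tlr2 window only, and in 19.2% of all windows. The windows of Tlr4, Clec4n and Cd14 were not searched. The C/EBP word TTNNGNAA occurred in those of Clec4d, Clec4e, Clec12a, Clec5a and Tlr2 (40.7% of all windows), and the AP-1 word TGANTCA in that of Clec12a (7.81%). A match is a description of these letters and not a site.

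Granule-low neutrophils had far more Clec4d and Clec7a RNA than granule-high neutrophils, and Clec4e and Myd88 were also higher. Clec12a and Clec5a went the other way in their share of positive cells, while their mean levels did not pass the test. Of the 9 members that passed the filter on low values, 4 were called higher in granule-low neutrophils and 0 lower, by limma with Benjamini-Hochberg adjustment over all 6183 genes at 0.05; over all genes, 9.36% were called, 6.03% higher and 3.33% lower. The median difference of the 9 was 1.51 on the log2(mean TPM + 1) scale, beside 0.10 over all genes. S100a8, S100a9, Rn45s and the granule genes took 14.0% of the TPM of granule-low and 40.0% of that of granule-high cells, and after TPM was scaled again without them the median of all genes was -0.41 and the calls were 237 higher and 352 lower, against 373 higher and 206 lower before. On that scale Clec4d (5.18, adjusted p = 0.01257) and Clec7a (5.71, adjusted p = 0.005286) were still called by limma, while Myd88 (0.95, adjusted p = 0.07859) and Clec4e (0.65, adjusted p = 0.09605) were not. With no filter on low values, which adds sparse genes to the fit, the 4 members had adjusted p-values from 0.0618 to 0.1125 by limma, and none of them was called. Among neutrophils within the quartiles of genes per cell, Clec7a was the 1 member called, and Clec4d had 3.31 (adjusted p = 0.05364).

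Clec7a, the receptor for beta-glucans of fungal walls, signals through a motif in its own tail. It was above 0 in 72.1% and 78.4% of granule-low cells of replicates 1 and 2, in 41.9% and 21.2% of granule-intermediate cells, and in 2.22% and 13.5% of granule-high cells. The exact 95% binomial interval was 56.3 to 84.7% for granule-low cells of replicate 1 and 0.0562 to 11.8% for granule-high cells of replicate 1. Its mean level was 804 and 956 TPM in granule-low cells, against 4.48 and 22.3 TPM in granule-high cells. No granule-low value overlapped a granule-high one, in shares or in levels, on any of the 4 plates: shares ran from 71.4 to 80.0% of granule-low cells and from 0 to 15.4% of granule-high cells of a plate. The fitted difference was 6.28 ± 0.75 (log2, SE, adjusted p = 0.003152 by limma), with 7.20 in replicate 1 and 5.36 in replicate 2. That is 77.6-fold when log2(mean TPM + 1) is averaged over the replicates, and not a ratio of the means. Granule-intermediate cells were also higher than granule-high cells for Clec7a, by 4.06 (adjusted p = 0.04763 by limma).

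Clec4d encodes MCL, a receptor for mycobacterial glycolipid that pairs with the product of Clec4e. It was above 0 in 93.0% and 84.3% of granule-low, 79.1% and 69.2% of granule-intermediate, and 17.8% and 23.1% of granule-high cells of replicates 1 and 2. Mean levels were 1733 and 1748 TPM in granule-low cells, 1000 and 520 TPM in granule-intermediate cells, and 20.1 and 57.9 TPM in granule-high cells. The replicates of granule-low cells nearly coincided, and the 3 classes did not overlap. Clec4d was 5.63 ± 0.85 (log2, SE) higher in granule-low than in granule-high cells (adjusted p = 0.007713 by limma), with 6.36 and 4.89 in the replicates. That is 49.4-fold when log2(mean TPM + 1) is averaged over the replicates. The difference of granule-intermediate from granule-high cells, 4.36, missed the threshold with an adjusted p of 0.05601 by limma.

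Clec4e encodes Mincle, a receptor for the mycobacterial cord factor and for a nuclear protein freed from dying cells. It was the most widely detected member, above 0 in 228 of 286 neutrophils. Mean levels were 1022 and 1494 TPM in granule-low, 987 and 1642 TPM in granule-intermediate, and 483 and 696 TPM in granule-high cells of replicates 1 and 2. Both granule-low values exceeded both granule-high values, whereas the granule-low and granule-intermediate ranges overlapped. Clec4e was 1.09 ± 0.21 (log2, SE) higher in granule-low cells (limma, adjusted p = 0.01899) and 1.13 higher in granule-intermediate cells (adjusted p = 0.04659), each relative to granule-high cells. The shares hardly differed, with 69.8% and 88.2% of granule-low against 75.6% and 73.1% of granule-high cells above 0. The call was lost under several settings, among them without cells with 3 or more proliferation markers (0.71, adjusted p = 0.08996 by limma) and with the granule score taken as the residual on genes above 0 (0.15, adjusted p = 0.7939).

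Myd88 encodes the adaptor that links most Toll-like receptors and the IL-1 receptor to their kinases. It differed in level more than in the share of positive cells. It was above 0 in 41.9% and 49.0% of granule-low, 37.2% and 40.4% of granule-intermediate and 46.7% and 53.8% of granule-high cells. Mean levels were 363 and 424 TPM in granule-low, 145 and 227 TPM in granule-intermediate, and 111 and 168 TPM in granule-high cells. Among positive cells the median was 811 and 742 TPM in granule-low, against 155 and 268 TPM in granule-high cells. The mean was 1.51 ± 0.29 (log2, SE) higher in granule-low than in granule-high cells (limma, adjusted p = 0.01843), and both granule-low values lay above both granule-high ones. The mean of log2(TPM + 1) over cells, which weighs the share of positive cells more, gave 0.34 (adjusted p = 0.6324 by limma). Acaa1a, which shares sequence with Myd88, had a difference of 0.10 (adjusted p = 0.912).

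**Figure D1:**
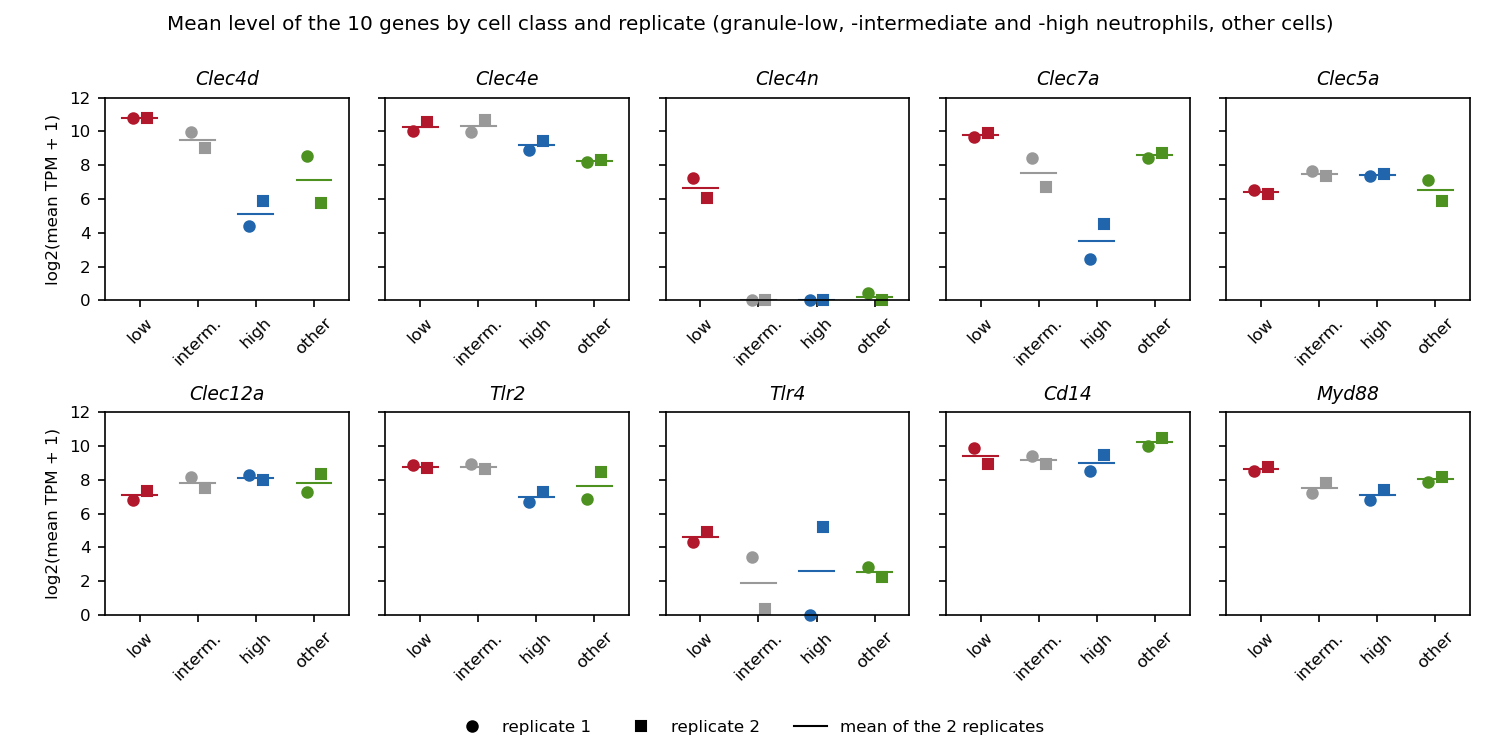
Mean level as log2(mean TPM + 1) of each of the 10 genes (panels) in granule-low, granule-intermediate and granule-high neutrophils and in other cells; circles are replicate 1, squares replicate 2 and lines their mean. Of the 3 neutrophil classes, Clec4d and Clec7a are highest in granule-low and lowest in granule-high cells in both replicates, and Clec4n is at 0 in granule-intermediate and granule-high neutrophils.

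Clec12a, an inhibitory lectin receptor that dampens responses to uric acid crystals, was above 0 in 27.9% and 21.6% of granule-low, 72.1% and 36.5% of granule-intermediate, and 84.4% and 78.8% of granule-high cells of replicates 1 and 2. Clec5a, an activating receptor that signals through the product of Tyrobp, was above 0 in 25.6% and 11.8% of granule-low, 55.8% and 48.1% of granule-intermediate and 77.8% and 71.2% of granule-high cells. For both genes every granule-low share lay below every granule-high share. The differences, granule-low minus granule-high, were -56.9 ± 0.523 percentage points for Clec12a and -55.8 ± 5.09 for Clec5a (SD, n = 2 replicates), given without a test. Over 7434 genes above 0 in at least 5% of cells the median difference was -8.15 points (quartiles -16.4 and -2.43), and the number of genes per cell moved with it. Among neutrophils within the quartiles of genes per cell (1386 to 1986), divided again into classes, the differences were -38.3 points for Clec12a and -47.3 points for Clec5a, with median genes of 1472 to 1518 in granule-low and 1750 to 1843 in granule-high cells; the part of the gap that remained was not tested. The summed level of the monocyte markers also moved with the classes, at 17625 TPM in granule-low and 39973 TPM in granule-high cells. Nearly all of it was Lyz2 (16942 TPM in granule-low and 37311 TPM in granule-high cells), which neutrophils also express, while Csf1r ran the other way (above 0 in 43.6% of granule-low and 10.3% of granule-high cells) and S100a4 and F13a1 were at 0 in both; their part was not tested.

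The mean levels of Clec12a and Clec5a showed the same direction with less room between classes. Clec12a averaged 111 and 163 TPM in granule-low against 304 and 250 TPM in granule-high cells, a difference of -1.03 ± 0.44 (log2, SE; limma, adjusted p = 0.1919). Clec5a averaged 90.4 and 76.5 TPM in granule-low against 163 and 178 TPM in granule-high cells, with -1.03 ± 0.43 (adjusted p = 0.1826 by limma). The groups did not overlap for either gene, and neither was called. Taken as the mean of log2(TPM + 1) over cells, the difference was -4.43 for Clec12a (adjusted p = 0.0008552 by limma) and -4.06 for Clec5a (adjusted p = 0.0002312), both called. Among positive cells alone the granule-low medians were higher: 393 and 712 TPM for Clec12a, against 331 and 258 TPM in granule-high cells, and 313 and 679 TPM for Clec5a, against 167 and 215 TPM in granule-high cells.

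Along the score the pairs changed at different points. Neutrophils of each plate were divided into 6 equal parts from the lowest to the highest granule score. Clec7a was above 0 in 66.7% and 34.6% of the cells of replicates 1 and 2 in part 3 and in 9.09% and 3.85% in part 4, whereas Clec4d was still above 0 in 68.2% and 57.7% in part 4 and in 9.52% and 4.0% in part 6. Clec4d mean levels in part 6 were 0.208 and 14.3 TPM, against 1969 and 1543 TPM in part 1. Clec5a was above 0 in 27.3% and 11.5% in part 2 and in 61.9% and 46.2% in part 3. Clec4e stayed between 60.0% and 96.2% throughout.

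**Figure D2:**
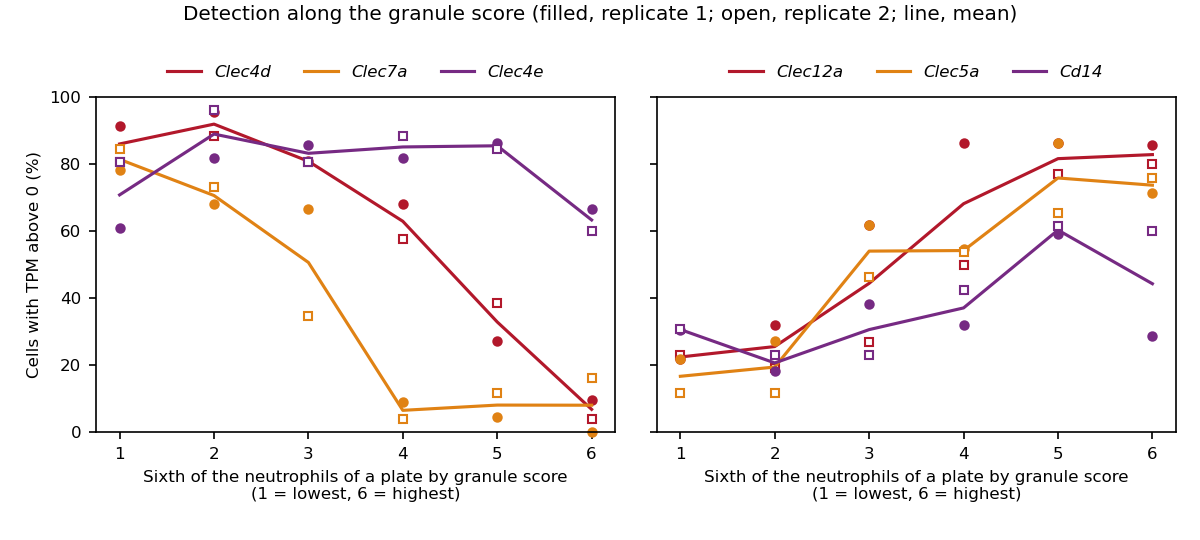
Percentage of cells with TPM above 0 in 6 equal parts of the neutrophils of a plate, ordered from the lowest (1) to the highest (6) granule score, for Clec4d, Clec7a and Clec4e (left) and Clec12a, Clec5a and Cd14 (right); filled circles are replicate 1, open squares replicate 2 and lines the mean. Clec7a drops between parts 3 and 4 and Clec4d between parts 4 and 6, while Clec12a and Clec5a reach at most 31.8% in parts 1 and 2 and at least 71.4% in part 6.

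Clec4n, a receptor for fungal mannans that uses the partner encoded by Fcer1g, was the rarest member in neutrophils. It was above 0 in 5 of 43 and 7 of 51 granule-low cells of replicates 1 and 2 (11.6% and 13.7%, with exact 95% intervals of 3.89 to 25.1% and 5.70 to 26.3%), in 0 of 95 granule-intermediate and in 0 of 97 granule-high cells. In granule-high cells the counts of 0 allow up to 6.67% in replicate 1 and 5.77% in replicate 2. Of these 12 cells, 12 were Il1b-positive, 11 had Clec4d, 11 had Clec4e, 8 had Clec7a and 0 had Clec5a above 0; of all 94 granule-low cells, 88 were Il1b-positive, 83 had Clec4d, 75 Clec4e, 71 Clec7a and 17 Clec5a. The 12 cells came from all 4 plates (3, 2, 2 and 5 cells). Of the monocyte markers, S100a4, F13a1 and Ccr2 were at 0 in each of them and Csf1r was above 0 in 6 of 12, against 35 of the 82 granule-low cells without Clec4n. In all, 3 or more of the 9 monocyte markers were above 0 in 2 of 12, against 26 of those 82, and the median of S100a8 plus S100a9 was 61017 TPM, against 97604 TPM; 1 cell in each set had 3 or more B cell markers. The part of these in the result was not tested. Clec4n did not reach 5% of all cells and was not tested in the main fit. With no filter on low values it was tested and called between granule-low and granule-high cells. Among neutrophils it entered that fit only through these 12 granule-low cells, with 0 positive granule-high cells. That call therefore adds nothing to the counts above, and no conclusion is drawn from it.

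Tlr2, which senses bacterial lipoproteins together with the products of Tlr1 or Tlr6, was above 0 in 53.5% and 49.0% of granule-low, 69.8% and 59.6% of granule-intermediate and 35.6% and 40.4% of granule-high cells. It averaged 467 and 410 TPM in granule-low, 486 and 395 TPM in granule-intermediate and 100 and 154 TPM in granule-high cells. Granule-low and granule-intermediate ranges overlapped, and both lay above granule-high cells. The difference between granule-low and granule-high cells was 1.81 ± 0.46 (log2, SE), which just missed the threshold (limma, adjusted p = 0.05168). In a fit of the neutrophil classes alone it was called (adjusted p = 0.01215 by limma).

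Tlr4, the lipopolysaccharide receptor, was above 0 in 26 of 286 neutrophils. It averaged 18.8 and 28.8 TPM in granule-low, 9.68 and 0.273 TPM in granule-intermediate, and 0 and 36.2 TPM in granule-high cells of replicates 1 and 2. The replicates of granule-high cells disagreed, with 0 of 45 against 21.2% of cells above 0, and the difference of 1.99 ± 1.77 (log2, SE; limma, adjusted p = 0.537) is not resolved at this number of positive cells. Cd14, which hands lipopolysaccharide to Tlr4, lies on chromosome 18 (from 36725067 to 36726798, minus strand). It was above 0 in 23.3% and 27.5% of granule-low against 44.4% and 59.6% of granule-high cells, while its mean level was 929 and 495 TPM against 362 and 694 TPM. Few granule-low cells thus carried much of it, with a median of 1519 and 1153 TPM among positive granule-low cells and 520 and 688 TPM among positive granule-high cells. The fitted difference in Cd14 was 0.43 ± 0.42 (log2, SE; limma, adjusted p = 0.5651), with opposite signs in the replicates (1.36 and -0.49) and a sign that turned in the mean of log2 over cells (-2.30) and after rescaling (-0.11). Of 26 Tlr4-positive neutrophils, 13 also had Cd14 above 0 and 15 had Myd88.

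**Figure D3:**
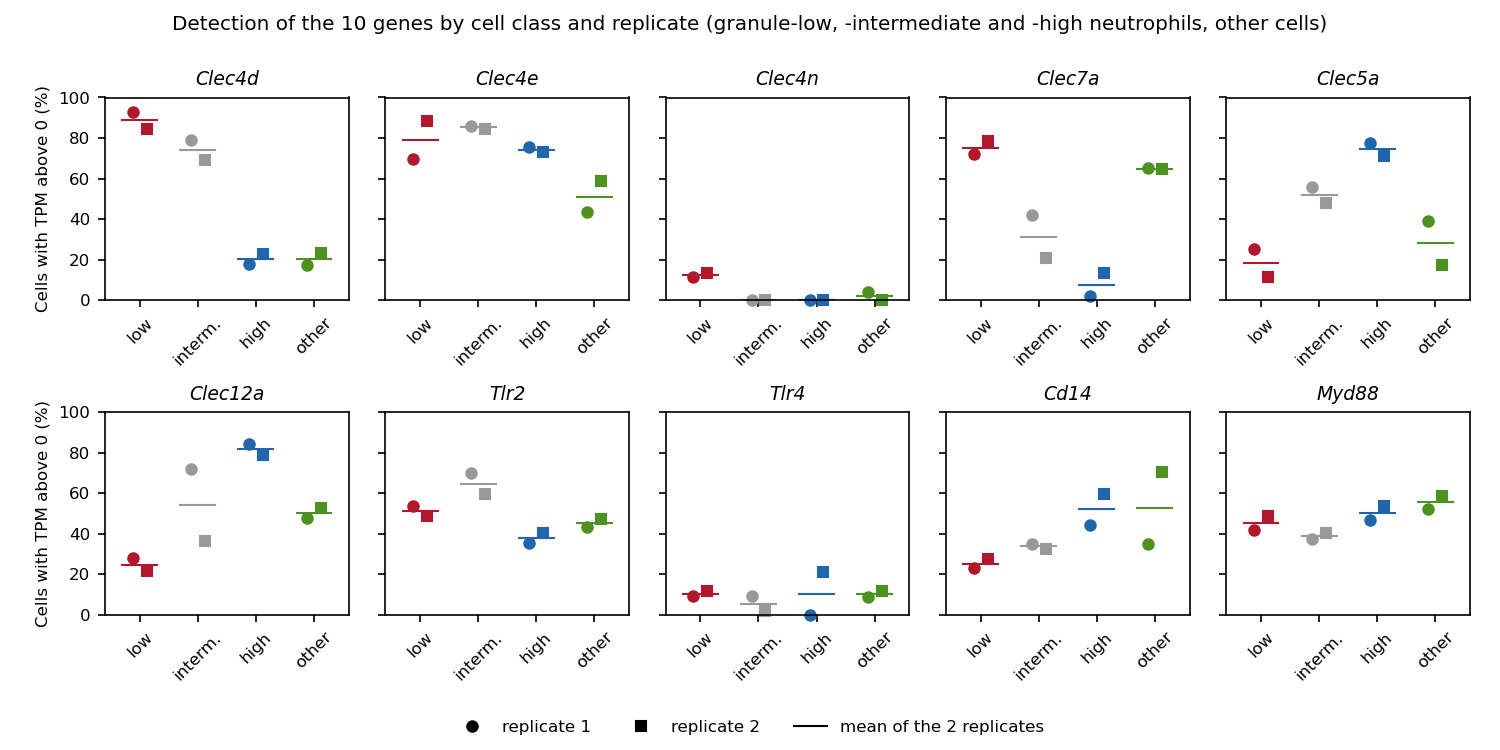
Percentage of cells with TPM above 0 for each of the 10 genes (panels) in granule-low, granule-intermediate and granule-high neutrophils and in other cells; circles are replicate 1, squares replicate 2 and lines their mean. Clec4d and Clec7a fall from left to right over the neutrophil classes, Clec5a and Clec12a climb, and Clec4e stays at 69.8% or more in each neutrophil class.

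In the share of positive cells, Tlr2, Clec4d, Clec7a and Clec4n were above granule-high cells in granule-low cells of each replicate. Of the 9 members above 0 in at least 5% of cells, 3 were so, beside 10.8% of 7434 genes, and 4 (Cd14, Myd88, Clec12a and Clec5a) had a lower share in each replicate, beside 68% of genes. A neutrophil had a median of 4 of the 10 members above 0 in each replicate, and only 1 of 286 neutrophils had none.

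Joint detection in single cells was counted beside the class shares of each gene. Clec4d and Clec7a were jointly above 0 in 60 of 94 granule-low, 27 of 95 granule-intermediate and 0 of 97 granule-high cells, where Clec4d was above 0 in 83, 70 and 20 cells and Clec7a in 71, 29 and 8. Clec12a and Clec5a were jointly above 0 in 3 of 94 granule-low, 32 of 95 granule-intermediate and 61 of 97 granule-high cells, with Clec12a above 0 in 23, 50 and 79 cells and Clec5a in 17, 49 and 72. Whether they meet in a cell more often than these shares give was not tested. The mean within-plate Spearman rho over the 286 neutrophils was 0.48 for Clec4d with Clec7a, 0.21 for Clec12a with Clec5a and -0.29 for Clec4d with Clec12a; these cells share plates and differ in genes detected, and the values are given as a description. By the same measure over 2780 genes, the genes most like Clec4d were Srgn (0.69) and Dusp1 (0.68), and those most like Clec7a were Csf3r (0.58) and Dusp1 (0.58). Clec4e was most like Mxd1 (0.43) and Fpr1 (0.42), Clec12a most like Camp (0.40) and Dstn (0.38), Clec5a most like Cybb (0.38) and Nhsl2 (0.36), and Tlr2 most like Retnlg (0.38) and Trem1 (0.36). The genes most like Cd14 (Ccrl2, 0.28, and Ankrd22, 0.26) and Myd88 (Myadm, 0.25, and Pisd-ps1, 0.23) had lower values. Camp is itself a granule score gene.

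The partner genes of the receptors were compared in the same fit, in lists chosen with earlier results of these data known. Of 10 C-type lectin signalling genes, 1 was higher in granule-low than in granule-high cells and 9 were not called, with a median difference of 0.45. The called gene was Tyrobp, the partner of Clec5a, at 6482 ± 291 TPM in granule-low and 2011 ± 134 TPM in granule-high cells (SD, n = 2; log2 difference 1.69 ± 0.12 SE, limma, adjusted p = 0.0003032). Fcer1g, the partner used by Clec4d, Clec4e and Clec4n, averaged 2474 ± 255 TPM in granule-low and 2779 ± 32.5 TPM in granule-high cells (-0.17, adjusted p = 0.3956). Syk was above 0 in 223 of 286 neutrophils with a difference of 1.51 (adjusted p = 0.09765), Bcl10 had 1.27 (adjusted p = 0.09053) and Ptpn6, a phosphatase of inhibitory receptors, 0.55 (adjusted p = 0.2424). Thus the share of cells with Clec5a and the level of its partner ran in opposite directions over the classes.

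Of 10 further Toll-like receptor genes, 4 were tested, 2 were higher in granule-low cells and 0 lower, with a median difference of 3.18; Tlr3, Tlr11 and Tlr12 were listed at 0 in every cell. Tlr13, which senses bacterial ribosomal RNA in mice, averaged 299 ± 57.5 TPM in granule-low and 39.2 ± 10.5 TPM in granule-high cells (2.91, adjusted p = 0.003758 by limma), and Tlr8 averaged 49.7 ± 23.2 TPM in granule-low and 4.07 ± 3.66 TPM in granule-high cells (3.46, adjusted p = 0.0446), from 10 of 94 and 4 of 97 positive cells. Of 3 co-receptor genes tested (median 1.46), 1 was lower and 0 higher. Lbp, which carries lipopolysaccharide to Cd14, was above 0 in 2 of 94 granule-low and 62 of 97 granule-high cells (-5.89, adjusted p = 0.02232). Of 8 adaptors and kinases tested, 0 were called by limma and 0 had an unadjusted p under 0.05, with a median of -0.29. Tirap, the bridging adaptor of Tlr2 and Tlr4, had a difference of 1.11 (adjusted p = 0.2801 by limma).

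Of 17 other C-type lectin receptor genes measured, 6 were tested, and 2 were higher and 1 lower in granule-low cells, with a median of 1.52. Clec4a2, an inhibitory receptor, was above 0 in 18 of 94 granule-low and 83 of 97 granule-high cells and averaged 81.7 ± 40.2 against 264 ± 28.9 TPM (-1.77, adjusted p = 0.01984 by limma), so it followed Clec12a. Clec4a1 (4.40, adjusted p = 0.02401) and Clec4a3 (5.68, adjusted p = 0.009156) were higher, but rested on 4 and 7 positive granule-low cells, against 1 granule-high cell each. Of 7 NF-kB target genes, 4 were higher and 3 not called, with a median of 2.07. These were Nfkbia, the NF-kB inhibitor (1.71, adjusted p = 0.002547), Cxcl2, a neutrophil chemokine (3.75, adjusted p = 0.01016), Ptgs2, a prostaglandin synthase (4.59, adjusted p = 0.01369), and Nlrp3, an inflammasome sensor (5.61, adjusted p = 0.04895). Il1rn, the IL-1 receptor antagonist, had 2.07 (adjusted p = 0.5076 by limma). It averaged 865 ± 113 TPM in granule-low and 206 ± 30.5 TPM in granule-high cells (SD, n = 2). The fit takes its spread from the other cells as well, where Il1rn was at 106 ± 150 TPM.

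The step from granule-intermediate to granule-high cells and that from granule-low to granule-intermediate cells were tested in the same fit. Granule-intermediate cells were higher than granule-high cells for 2 of 9 members (Clec7a and Clec4e) and lower for 0, beside 1.41% and 0.307% of all genes; these comparisons share the granule-high averages with the main one. Granule-low against granule-intermediate cells gave 0 of 9 members, beside 0.776% of all genes called in either direction (0.453% higher and 0.323% lower); 3 members had an unadjusted p under 0.05. The nearest were Myd88 (1.11, adjusted p = 0.137 by limma), Clec7a (2.22, adjusted p = 0.2228) and Clec5a (-1.11, adjusted p = 0.2726).

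**Figure D4:**
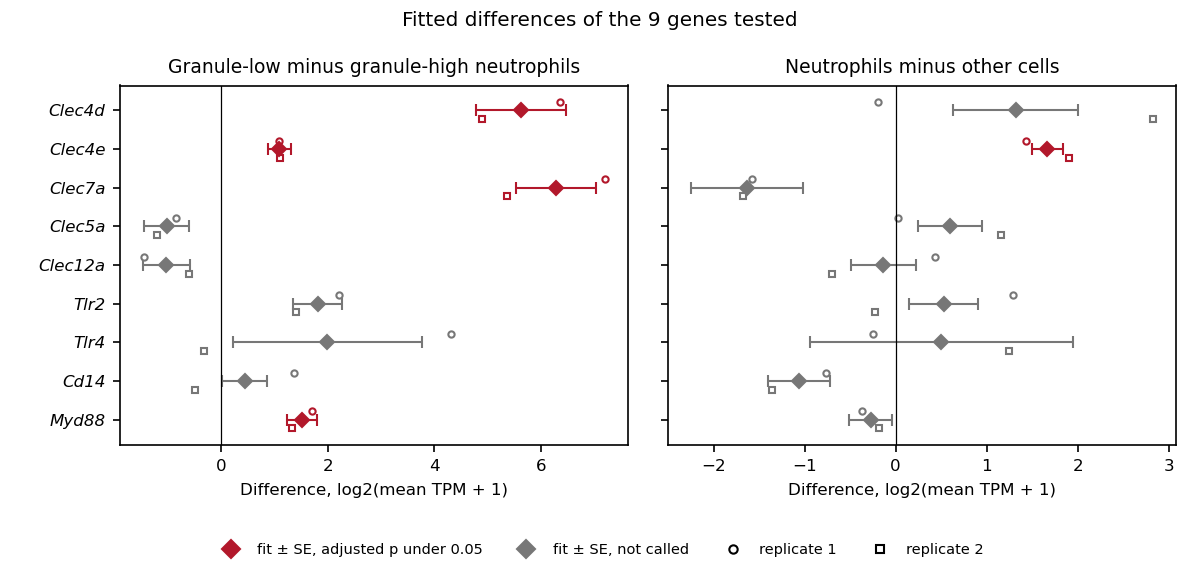
Fitted differences in log2(mean TPM + 1) with their SE (diamonds and bars) for the 9 genes tested, granule-low minus granule-high neutrophils (left) and neutrophils minus other cells (right); open circles are replicate 1 and open squares replicate 2, and red marks an adjusted p under 0.05. Clec7a (6.28) and Clec4d (5.63) lie furthest to the right on the left side, and Clec4e (1.67) is the gene called on the right side.

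The next question was whether Il1b-positive neutrophils differ from Il1b-zero neutrophils of the same granule class. Il1b encodes a cytokine that these receptors are known to induce. Of the 9 members tested, 0 were called, beside 0% of 5332 genes; 4 members and 474 genes passed 0.05 without adjustment, and the smallest adjusted p of any gene was 0.06939 (limma). The fit gives the same weight to the 6 Il1b-zero granule-low cells (2 and 4 in the replicates) as to larger classes. Each of the 9 members had a positive fitted difference, from 0.36 for Clec4e (adjusted p = 0.537) to 2.83 for Cd14 (adjusted p = 0.5521), with a median of 1.15 beside 0.47 over all genes, but the sign turned for Tlr4 (-0.26) and Clec12a (-1.12) in the mean of log2 over cells and for Clec12a in the granule-intermediate class alone (-1.19). Without granule class in the fit, 6 members were called (Tlr2, Cd14, Myd88, Clec4d, Clec4e and Clec7a) and 564 genes in all, so Il1b status and granule class cannot be told apart for them there.

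The granule-intermediate class has enough cells in both groups, 61 Il1b-positive and 34 Il1b-zero, with median genes of 1692 and 1525 in Il1b-positive and 1615.5 and 1480.5 in Il1b-zero cells of replicates 1 and 2. Tlr2 was above 0 in 72.7 ± 7.16% of Il1b-positive and 50.3 ± 8.35% of Il1b-zero cells (SD, n = 2). Clec4d was above 0 in 79.4 ± 8.24% of Il1b-positive and 64.9 ± 5.40% of Il1b-zero cells. Clec7a was above 0 in 37.3 ± 15.3% of Il1b-positive and 21.2 ± 14.2% of Il1b-zero cells, and Clec12a in 41.8 ± 30.0% of Il1b-positive and 77.1 ± 14.7% of Il1b-zero cells. Within replicates 1 and 2, Clec7a was higher in Il1b-positive cells in both (48.1% against 31.2%, and 26.5% against 11.1%), and Clec12a lower in both (63.0% against 87.5%, and 20.6% against 66.7%), given without a test. Granule score was not matched between Il1b-positive and Il1b-zero cells. Parts 3 and 4 of the score make up most of this class. Il1b was above 0 in 66.7% and 76.9% of part 3 and 54.5% and 53.8% of part 4. Clec7a also fell and Clec12a rose from part 3 to part 4, and the part of this was not tested. Cd14 averaged 797 ± 235 TPM in Il1b-positive and 205 ± 25 TPM in Il1b-zero cells. A fit of this class alone, added after the data were seen, called 10 genes in all, and Cd14 was the 1 member among them (1.93, adjusted p = 0.009011 by limma). That fit holds only 1 average per group and replicate. The highest Cd14 values of single cells were 13671 and 6196 TPM in Il1b-positive and 1338 and 1626 TPM in Il1b-zero cells of replicates 1 and 2.

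In the granule-high class, 20 cells were Il1b-positive. Tlr2 was above 0 in 69.7 ± 4.29% of these and in 29.7 ± 2.78% of the 77 Il1b-zero cells, a gap wider than the spread of the replicates (SD, n = 2), and it averaged 302 ± 190 TPM in Il1b-positive and 81.0 ± 3.35 TPM in Il1b-zero cells. Clec4d was above 0 in 39.4 ± 8.57% of Il1b-positive and 15.5 ± 2.25% of Il1b-zero cells. Clec4e was above 0 in 89.9 ± 1.43% of Il1b-positive and 70.3 ± 2.78% of Il1b-zero cells. Granule score was not matched here either, and parts 5 and 6 of the score make up most of this class. Il1b was above 0 in 22.7% and 34.6% of part 5 and 14.3% and 4% of part 6 (replicates 1 and 2). The shares of Tlr2, Clec4d and Clec4e also fell from part 5 to part 6 in both replicates. The 15 cells with 3 or more proliferation markers were kept in, and Tlr2 was above 0 in 5 of 23 such neutrophils. The part of score and proliferation was not tested. Clec5a (66.2 ± 16.4% of Il1b-positive and 76.7 ± 1.53% of Il1b-zero cells) and Clec12a (79.8 ± 2.86% of Il1b-positive and 82.1 ± 5.70% of Il1b-zero cells) did not differ in the same direction in both replicates. Whether the Il1b difference itself differs between granule classes was tested by an interaction term, which called 0 of 9 members, beside 0% of 5332 genes (limma; 0 members and 682 genes at an unadjusted p under 0.05, smallest adjusted p 0.1341).

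**Figure D5:**
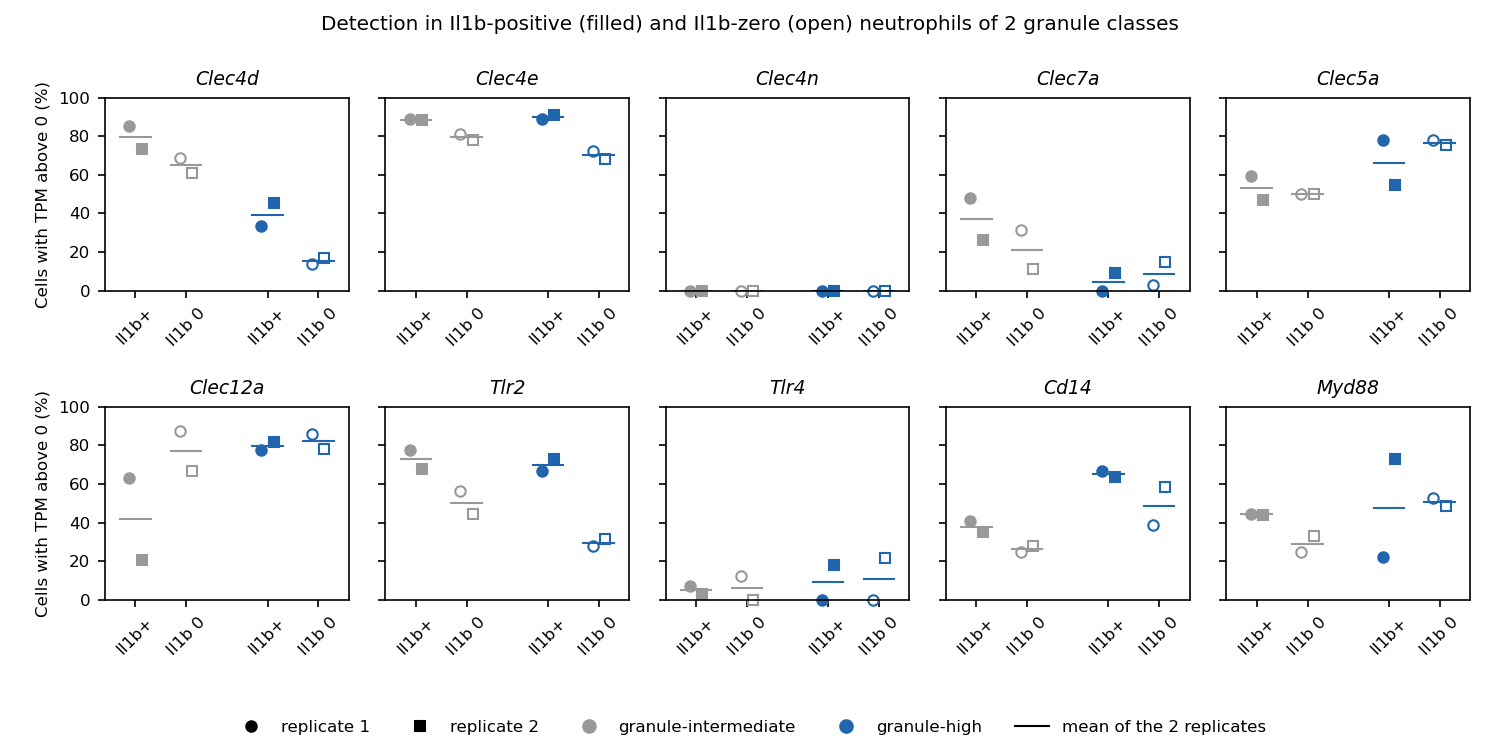
Percentage of cells with TPM above 0 for each of the 10 genes (panels) in Il1b-positive (filled) and Il1b-zero (open) neutrophils of the granule-intermediate (grey) and granule-high (blue) classes; circles are replicate 1, squares replicate 2 and lines their mean. Tlr2, Clec4d and Clec4e are higher in Il1b-positive cells in both classes and replicates, and Clec12a is lower in Il1b-positive cells of the granule-intermediate class.

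Against the 40 other cells, neutrophils stood out by Clec4e. The 3 neutrophil classes were averaged with equal weight in the fit, and 1 of 9 members was called higher and 0 lower, while 24.7% of all genes were called, 6.53% higher and 18.2% lower. Clec4e averaged 1050.4 ± 318 TPM in neutrophils and 305 ± 19.5 TPM in other cells (SD, n = 2), a difference of 1.67 ± 0.17 (log2, SE; limma, adjusted p = 0.000668), and was above 0 in 79.5 ± 3.42% of neutrophils and 51.2 ± 10.9% of other cells. Neutrophil values lay above those of other cells in both replicates. Over all genes the median difference was -0.69, and that of the 9 members 0.50.

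The other 8 members tested were not called between neutrophils and other cells. Clec7a was above 0 in 37.8 ± 0.529% of neutrophils and 65.0 ± 0.362% of other cells. Yet the share in other cells (65.2% and 64.7%) lay just under that in granule-low neutrophils (72.1% and 78.4%). Its mean over all neutrophils, 366 ± 13.3 TPM, was close to the 382 ± 58.5 TPM of other cells (SD, n = 2). The fitted difference of -1.63 (adjusted p = 0.08976 by limma) averages the logs of 3 classes of very unequal level. Clec4d was above 0 in 60.7 ± 2.75% of neutrophils and 20.5 ± 4.34% of other cells, a share close to that of granule-high neutrophils, and its level differed by 1.32 (adjusted p = 0.1938), with -0.19 in replicate 1 and 2.83 in replicate 2. Cd14 averaged 605 ± 64.0 TPM in neutrophils and 1227 ± 270 TPM in other cells (-1.06, adjusted p = 0.05675 by limma). Tlr2, Tlr4, Myd88, Clec12a and Clec5a differed by 0.53, 0.50, -0.28, -0.13 and 0.60, with adjusted p-values from 0.2398 to 0.8204.

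Most of the other cells carried monocyte markers: S100a4 was above 0 in 26 of 40, against 0 of 286 neutrophils, and Ccr2 in 28 of 40, against 16 of 286. Csf1r, F13a1, Ms4a6c, Fn1 and Klf4 were also above 0 in a larger share of other cells than of neutrophils. Ly6c2 (65.0% of other cells and 80.4% of neutrophils) and Lyz2 (87.5% and 98.6%) went the other way. Of the other cells, 32 of 40 also had 3 or more of 10 neutrophil markers above 0. Among the 31 with 3 or more monocyte markers, Cd14 was above 0 in 20 and Clec7a in 23, whereas among the 9 with fewer, Cd14 was above 0 in 0 and Clec7a in 3. When these 31 alone stood for the other cells, 4 members were called: Clec4e, Tlr2 (1.10, adjusted p = 0.02648 by limma) and Clec4d (2.18, adjusted p = 0.0126) higher in neutrophils and Cd14 (-1.43, adjusted p = 0.02305) lower. With all 40 other cells 24.7% of all genes were called. The share of all genes called in the fit with 31 cells is not given here, so this count of members has no background. In granule-low neutrophils with Clec7a, S100a4 and F13a1 were at 0 in all 71 cells, Ccr2 was above 0 in 3 and Csf1r in 30, and 18 of 71 had 3 or more monocyte markers above 0.

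In the pathway lists, of 8 adaptors and kinases tested (median -0.84, against -0.69 over all genes) 1 was higher in neutrophils, Tirap (2.14, adjusted p = 0.01747 by limma). A further 2 were lower, Ticam1 (-3.71, adjusted p = 0.01411 by limma) and Ticam2 (-3.89, adjusted p = 0.04124), which serve the interferon branch of Tlr3 and Tlr4. Of 3 co-receptor genes tested (median -1.60), Ly86, the partner of the Toll-like protein encoded by Cd180, was lower (-7.30, adjusted p = 0.0006505). Of 10 lectin signalling genes (median 0.09) Hcst was higher (1.29, adjusted p = 0.04444), and of 7 NF-kB targets (median 0.89) Il1rn (4.86, adjusted p = 0.04272). Of 6 other lectin receptors tested (median -5.08), Ly75 was higher (3.26, adjusted p = 0.039; listed at 0 in other cells) and Clec4a1, Clec4a3, Clec4b1 and Cd302 were lower, with differences of -6.25, -6.82, -4.66 and -5.50 and adjusted p-values from 0.0008026 to 0.002731. Fcer1g and Tyrobp, the shared partner genes, differed by -0.15 and -0.0044 (adjusted p = 0.2546 and 0.981 by limma). Of 4 further Toll-like receptors tested (median -0.16), 0 were called and 1 had an unadjusted p under 0.05.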

How the data were processed

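The authors deposited 1 table of TPM values for 23420 genes in 326 cells; per the submitters' processing notes it was made with RSEM on mm10. The aligner is not given in the sources used here, nor is the gene annotation. Each cell sums to 1000000 TPM, so a very abundant transcript lowers all others, and depth is unknown. Replicate numbers and plates came from the labels. TPM was averaged over the cells of each class and replicate, and log2(mean TPM + 1) was fitted by limma 3.58.1 in R 4.3.3, with an intensity trend and robust variances and the replicate as a block, for genes with a mean of 5 TPM or more and above 0 in at least 5% of cells, with Benjamini-Hochberg adjustment over all genes at 0.05. The granule fit held 8 averages (3 residual degrees of freedom) and the Il1b fit 12, with granule class as a term; a fold change on this scale understates the change of low genes. The fit was tested on simulated data. Shares carry exact (Clopper-Pearson) 95% binomial intervals, which cover counting error only. In the 3 neutrophil classes these intervals were 6.85 to 31.2 percentage points wide. They were wider in smaller groups, such as 29.9 to 92.5% for Tlr2 in Il1b-positive granule-high cells of replicate 1. For a share of 0 the limit is that of 3 cells. Python 3.11.15 with numpy 2.4.6, pandas 2.3.3, scipy 1.17.1 and matplotlib 3.10.9 was used. Members and lists were chosen with earlier results of these data known. Beside the members, all genes called in a list were named, and among the uncalled ones those above 0 in at least 50% of neutrophils. For each member above 0 in at least 20% of neutrophils, the 2 genes most like it were named; Acaa1a was added for its overlap with Myd88. Alternatives were the pseudocount, the low-value filter, averaging of logs, rescaled TPM, plates, no block, thresholds on cells and classes, and leaving out each replicate. Loci came from the GENCODE annotation of GRCm38 and promoters from RefSeq (GRCm38.p6). The promoter windows of 7 of the 10 members were searched. Tlr4 and Clec4n had no entry, and Cd14 was left out of the search. Doublets were not called.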

Additional observations from a re-analysis of the deposited data

How the results depend on the processing

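Of 9 members, 4 were called between granule-low and granule-high neutrophils. With no filter on low values none of these 9 was called. The 1 member called there was Clec4n, which was tested in that setting only and was at 0 in all granule-high cells. There were 2 called with TPM scaled again and 1 within the quartiles of genes per cell (an alternative chosen after seeing the data). All other settings gave 3 to 5. Genes called in all numbered 579, against 162 with no filter, 1318 for the mean of log2 over cells, 347 without proliferating cells, 276 with 2 classes, 255 with the residual score and 90 within the quartiles. For neutrophils against other cells the 1 member called became 2 per plate, without the replicate block, without proliferating cells and at 50000 TPM, 3 at a pseudocount of 10 TPM, with 2 classes, the residual score, all neutrophils or the quartiles, 4 against monocyte-marker cells and 6 for the mean of log2; genes called in all were 1530, against 1011 at a pseudocount of 0.1, 3512 for the mean of log2 and 967 without proliferating cells. For Il1b the 0 members called became 6 without granule class and 1 in the granule-intermediate class alone, and the 0 genes became 564 and 10 there, 1 without the block and 2 at 100 TPM; the interaction gave 226 genes per plate, 2 without the block and 97 at 50000 TPM. The cause of these changes was not tested.

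Signs turned for granule-low minus granule-high in Tlr4 (-0.020, mean of log2) and Cd14 (-2.30, mean of log2; -0.11, scaled again; -0.98 at 50000 TPM). They turned for neutrophils minus other cells in Tlr4 (-0.14 at 0.1 TPM; -0.059, mean of log2), Myd88 (0.10, scaled again) and Clec12a (0.14, mean of log2; 0.28, scaled again; 0.12 without proliferating cells; 0.0048 against monocyte-marker cells). For Il1b they turned in Tlr4 (-0.26, mean of log2), Clec12a (-1.12, mean of log2; -0.83 without granule class; -1.19 in the granule-intermediate class; -0.066 weighted by cells) and Clec5a (-0.20 without granule class). The Myd88 share turned to 8.83 points within the quartiles. Leaving out a replicate leaves no test; the difference of Clec7a was 5.36 to 7.20 and that of Clec4d 4.89 to 6.36, while neutrophils minus other cells for Clec4d ran from -0.19 to 2.83. No other paired analysis was possible because the samples form 1 group. Depth per cell is unknown, and with 2 replicates small differences were not detectable.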
